A study of Mus musculus with 6 samples.

Results

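The subject is the loss of 1 of the 2 Sin3a alleles in the newborn mouse testis, read from 2 arrays of hemizygous mice (HEMI) against 2 arrays of wild-type mice (WT), which are 4 of the 6 arrays of the series. The arrays of a group were chosen by their labels, and the comparison covers 23993 of 35072 genes on the array, those that passed the filter on dim signal in HEMI or in WT (the probe counted as well above background in both animals). HEMI mice have the genotype Vasa-cre;Sin3a deleted/+ and keep 1 working Sin3a allele in their germ cells. WT mice have the genotype Vasa-cre;Sin3a +/+, so that they carry the Cre transgene too, with both alleles intact. The remaining group of 2 mice, VSKO (Vasa-cre;Sin3a deleted/floxed), has no working allele in germ cells, and it is used here to help estimate the spread between animals and as a reference. All were males at postnatal day 0 of a mixed strain labelled FVB.129/Sv, and each array holds total RNA from the whole testes of 1 animal. Ddx4, also called Vasa or Mvh, is expressed in germ cells and drives the Cre. Which exons were deleted, and whether cells other than germ cells of HEMI mice carry the deleted allele, is not given in the sources used here.

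SIN3A is a large scaffold protein without DNA-binding or enzyme activity of its own. It brings the histone deacetylases HDAC1 and HDAC2 and their partner proteins to sites chosen by transcription factors, and it is best known as a corepressor. In the newborn testis the germ cells are gonocytes, which rest in the cell cycle, lay down DNA methylation and silence transposons. Around them lie Sertoli cells, which nurse them within the cords, and fetal Leydig cells, which make androgens between the cords. A whole testis mixes all of these, and in such bulk RNA fewer cells of a type and less RNA per cell cannot be told apart.

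On these 1-colour arrays a level is the log2 processed signal relative to the 75th percentile of its array, so that 0 is the level of a fairly bright probe, and a difference of 1 is a doubling. Between 59.2% and 64.53% of the spots were well above background, 0 were saturated, and Pearson's r across genes was 0.99 between the HEMI animals and 0.992 between the WT animals. The HEMI and VSKO arrays lay in row 1 of the slide and the WT arrays alone in row 2, so slide row and genotype cannot be told apart in any HEMI minus WT value, nor where VSKO lies close to HEMI and apart from WT. The labels call the animals biological replicates.

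Sin3a itself had a level of 0.89 on both HEMI arrays and of 1.09 and 1.11 on the WT arrays. Both HEMI arrays were lower than both WT arrays, as in 28.6% of all tested genes. The difference of -0.21 ± 0.13 (SE) left 86.3% of the WT level and did not pass the test (limma adjusted p = 0.558). The 95% interval of the difference ran from -0.54 to 0.11. The VSKO arrays stood at 0.61 and 0.38. The probe lies on mouse build mm9 at chr9:56975655-56975714, and outside the deleted exons it would be no check of the genotype. The paralog Sin3b had a difference of 0.12 ± 0.13 (adjusted p = 0.726). Of the 24 tested genes of the SIN3 scaffolds and histone deacetylase complex none passed, 14 stood above 0 and 10 below, and the median difference was 0.08. The members with the smallest p were the complex subunit Brms1 at 0.36, the subunit Arid4b at 0.33 and the DNA-binding repressor Rest at 0.42 (adjusted p = 0.329 to 0.413).

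Across all genes 63 changed between HEMI and WT at an adjusted p under 0.05, which is 0.263% of the 23993 tested. Of these 13 rose (0.0542%) and 50 fell (0.208%), while the median difference over all genes was -0.02. A RefSeq gene symbol was attached to 32 of the 63, 7 that rose and 25 that fell. Predicted-gene, clone and accession names were not counted as symbols. The probe was well above background on all 4 arrays for 46 of them, on no WT array for 6 that rose and on no HEMI array for 10 that fell. The 6 were kept through HEMI alone and the 10 through WT alone, in each case the group where they are high. The smallest called difference was 1.16, a 2.24-fold change, so no smaller change was called in this fit, with 2 animals a group. At an unadjusted p under 0.05 there were 3080 genes (12.8%), 1180 higher (4.92%) and 1900 lower (7.92%), where 1200 would be expected with no difference.

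The count rests on every array. It was 11 without HEMI replicate 1, 0 by limma without HEMI replicate 2, where 2435 genes had an unadjusted p under 0.05, and 5 without WT replicate 1. Without WT replicate 2 it was 0 by limma, with 2373 such genes, and with either VSKO array left out it was 13. Of the 25 called genes named by the rule of the analysis, 21 were called in none of these 6 fits. The other 4 were Krtap3-3, Vmn1r104, Upp2 and Platr26. With probes kept where any of the 3 groups was above background, a filter chosen after seeing the data, 29 genes were called, all 29 of them among the 63, and 10 of the 25 named genes lost their call at adjusted p = 0.0519 to 0.0589: Ctsh, Lrat, H2bc4, Ldha, Pgk1, Colec11, Fam183b, Vill, Lhx1 and Mlph.

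**Figure D1:**
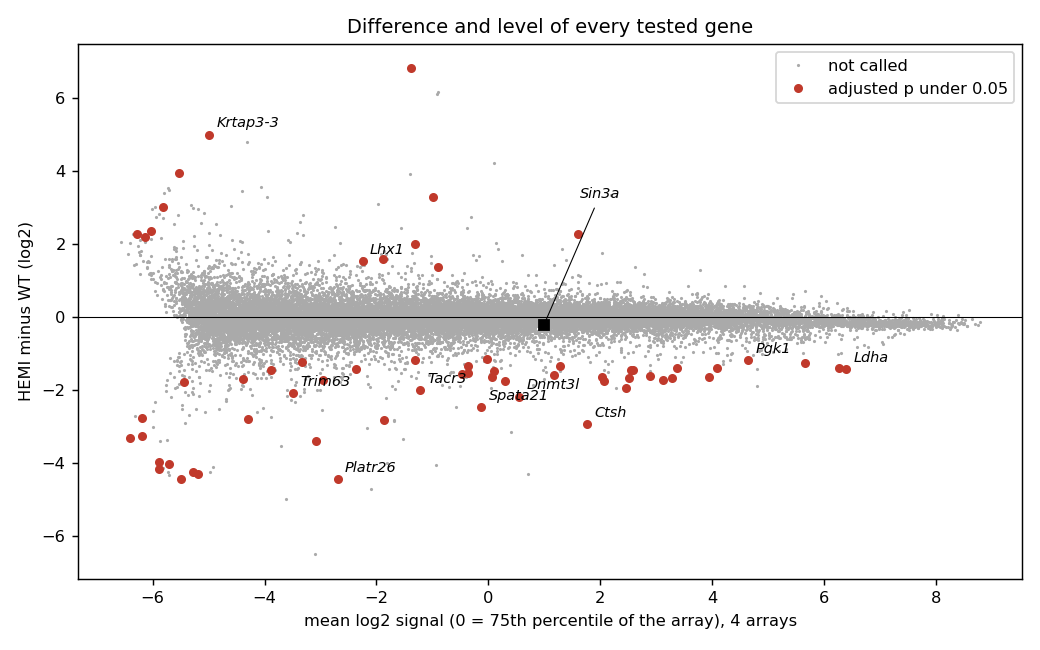
HEMI minus WT difference (log2, vertical) against the mean level of the 4 arrays (log2, horizontal) for each of the 23993 tested genes. The 63 called genes are red, 50 of them below 0 and 13 above, and the black square marks Sin3a at -0.21.

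The genes of germ cell programmes that fell were Dnmt3l, Spata21 and Rbmy. Dnmt3l encodes a cofactor without catalytic activity of its own that the de novo DNA methyltransferases need in gonocytes. Its level was -0.65 and -0.43 on the HEMI arrays and 1.85 and 1.45 on the WT arrays. Both HEMI arrays lay far below both WT arrays, and the fall of 2.19 ± 0.18 (SE), or 4.55-fold, passed (adjusted p = 0.0337). The VSKO arrays stood at -0.13 and -0.10, and the VSKO minus HEMI difference of 0.43 did not pass (adjusted p = 0.728). Of the 19 tested genes of DNA methylation and demethylation Dnmt3l was the 1 that passed, where 0.208% of all genes fell. The gene lists used here were chosen with earlier results of these data known, so such a count is no test. The maintenance methyltransferase Dnmt1 had a difference of -0.00, the de novo enzymes Dnmt3a and Dnmt3b of -0.08 and 0.06, and the oxidase Tet3 of -0.49 (adjusted p = 0.186), although its dimmer probes stood at 1.02 and 0.31.

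Spata21 is a spermatogenesis-associated gene. It had levels of -1.47 and -1.26 in HEMI and of 1.18 and 1.05 in WT, without overlap. Its fall of 2.48 ± 0.18 (SE) was 5.58-fold (adjusted p = 0.0317), and its other probe gave -2.34. The VSKO arrays, at 1.1 and 0.70, were close to WT, and the VSKO minus HEMI difference of 2.27 just missed the threshold (adjusted p = 0.052). Spata21 was the 1 gene that passed of 14 tested spermatid, acrosome and sperm tail genes, where 0.208% of all genes fell. The median difference of the 14 was -0.29 (-0.56 to -0.18 over 17 alternatives). Ldhc, the lactate dehydrogenase of germ cells, had levels of -1.21 and -1.08 in HEMI and of -0.02 and -0.19 in WT (difference -1.04, adjusted p = 0.0728). Tekt1, a tektin of cilia and flagella, stood at -1.28 and -1.52 in HEMI, at -0.53 and -0.82 in WT and at 0.88 and 0.89 in VSKO. Its HEMI minus WT difference was -0.72 (adjusted p = 0.170) and its VSKO minus HEMI difference was 2.28 (adjusted p = 0.0514), so neither passed.

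Rbmy is a multicopy gene of the Y chromosome whose product binds RNA in male germ cells. It had levels of 1.29 and 1.67 in HEMI and of 3.45 and 3.40 in WT. It fell by 1.94 ± 0.16 (SE), or 3.84-fold (adjusted p = 0.0345), and its other probe stood at -1.84. The arrays do not separate the copies of Rbmy. Sly, another multicopy Y gene of the male germ line, had levels of -0.72 and -0.20 in HEMI and of 0.84 and 1.01 in WT. Its difference of -1.39 did not pass (adjusted p = 0.103), and 3 dimmer probes ran from -2.33 to -1.67, while the dimmest lay, in HEMI, under the lowest signal that counted as well above background. The other 6 tested genes of the Y chromosome list ran from -0.36 for the translation factor Eif2s3y to 1.12 for the zinc finger gene Zfy2, and the median of the 8 was 0.13 (-0.36 to 0.17 over 17 alternatives). Zfy2 was not above background on the WT arrays.

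**Figure D2:**
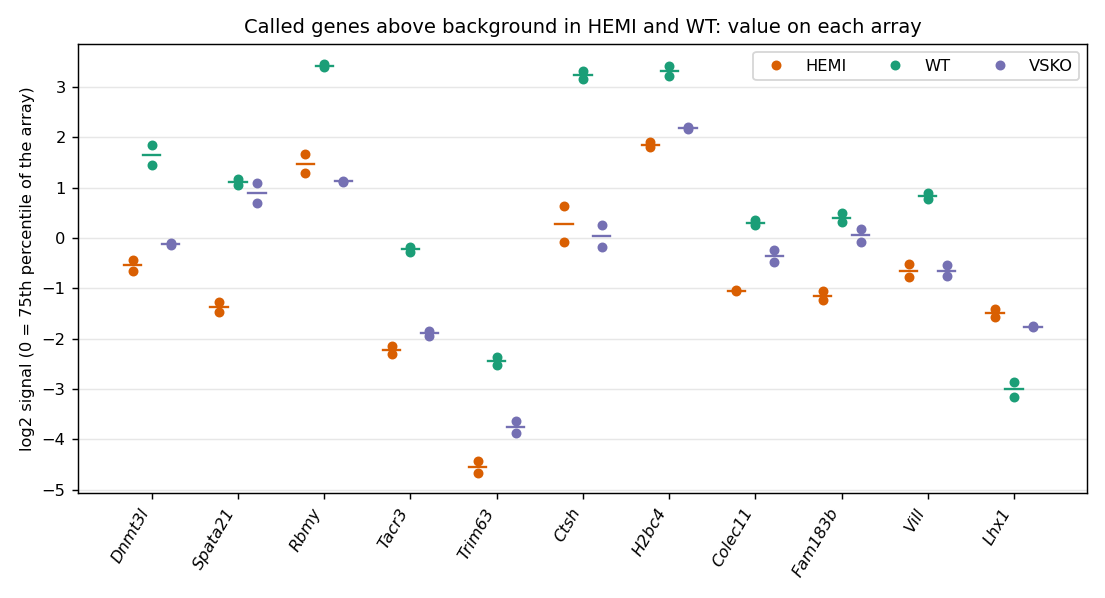
Level (log2, 0 is the 75th percentile of the array) of 11 called genes on each of the 6 arrays, with the mean of each group as a short line. HEMI and WT do not overlap in any of the 11, and for Spata21 the VSKO arrays at 1.1 and 0.70 lie near the WT arrays while for Dnmt3l, at -0.13 and -0.10, they lie nearer to HEMI.

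General germ cell markers mostly stood lower in HEMI without passing. Ddx4, the germ cell RNA helicase whose promoter drives the Cre, had levels of 2.18 and 2.31 in HEMI and of 2.05 and 2.25 in WT, which overlap (difference 0.10, adjusted p = 0.837). Dazl, an RNA-binding protein of germ cells, had a difference of -0.22 (adjusted p = 0.638). Of the 18 tested general germ cell genes none passed, and 17 stood below 0. In 10 of the 18 both HEMI arrays lay below both WT arrays, where 28.6% of all genes did, and in 0 above, where 21.2% did. At an unadjusted p under 0.05, 6 were lower and none higher, against 7.92% of all genes lower, and the median difference was -0.28. It was -0.40 without HEMI replicate 2 and -0.22 without HEMI replicate 1 or WT replicate 2. The members with the smallest p were Tdrkh at -0.92, Rnf17 at -1.27, Dppa3 at -1.70 and Tdrd9 at -0.71 (adjusted p = 0.104 to 0.252). Tdrkh, Rnf17 and Tdrd9 encode Tudor domain proteins of germ granules and the piRNA pathway, and Dppa3 encodes an oocyte and germ cell protein.

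Of 25 piRNA pathway and transposon silencing genes none passed. At an unadjusted p under 0.05, 8 were lower and 3 higher, where 7.92% and 4.92% of all genes were. The median was -0.21. This median was -0.35 without WT replicate 1 and -0.10 without WT replicate 2. The list shares Ddx4, Tdrkh, Rnf17, Tdrd9 and other members with the general germ cell list, so their medians are not independent. Piwil4, the nuclear Piwi protein of gonocytes, had levels of -2.75 and -2.77 in HEMI and of -2.00 and -1.97 in WT (difference -0.77, adjusted p = 0.189). Tdrd12, a Tudor domain protein needed for piRNA production, stood on the other side at 0.67 (adjusted p = 0.156).

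Markers of gonocytes and stem cells were split. Of 23 tested 1 rose, Lhx1, where 0.0542% of all genes did, and none fell, and the median was 0.07. Lhx1 is a homeobox gene used both in spermatogonial stem cells and in the mesonephric duct. It had levels of -1.41 and -1.56 in HEMI and of -3.15 and -2.86 in WT, and it rose by 1.52 ± 0.15 (SE), or 2.87-fold (adjusted p = 0.0441), with its other probe at 1.18. It lost the call when probes were kept from any group. All 10 tested mesonephric duct, epididymis and rete markers, Lhx1 included, stood above 0 (median 0.42). The median rests on HEMI replicate 1, as it was -0.17 without that array and 0.99 without HEMI replicate 2, and the HEMI arrays differed: the duct cadherin Cdh16 stood at 0.89 and -4.72 in HEMI and at -5.06 and -4.37 in WT. The summed level of the list was 4.44 and 3.60 on the HEMI arrays and 3.40 and 3.57 on the WT arrays, on the log2 scale, and 4 of the 14 listed markers were not tested. Their part in the Lhx1 value was not tested.

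Nanos2, an RNA-binding protein that keeps male germ cells out of meiosis, had levels of -2.68 and -2.17 in HEMI and of -3.28 and -2.95 in WT. HEMI lay higher without overlap, as in 21.2% of all genes, and the difference of 0.69 ± 0.34 (SE) did not pass (adjusted p = 0.479). On the VSKO arrays it stood at -6.48 and -5.61 and was not above background, and the VSKO minus HEMI difference was -3.62 (adjusted p = 0.0678). Zbtb16, a transcription factor of stem cells also called PLZF, had a difference of 0.50 (adjusted p = 0.324), the pluripotency factor Pou5f1 of -0.63 (adjusted p = 0.145), and the chromatin protein Utf1 of -0.79 (adjusted p = 0.0921). Of 23 meiotic genes none passed, and the median was -0.04. At an unadjusted p under 0.05, 4 were higher and 2 lower, where 4.92% and 7.92% of all genes were. Stra8, a retinoic acid-induced gene needed for meiotic entry, stood at -0.46 (adjusted p = 0.356) and Mei1, which is needed for meiotic chromosome synapsis, at 0.95 (adjusted p = 0.0862).

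Enzymes of glycolysis were lower in HEMI. Glycolysis turns glucose into pyruvate, which lactate dehydrogenase converts to lactate, and lactate from Sertoli cells is a known fuel of later germ cells. Ldha, the main lactate dehydrogenase subunit of glycolytic tissue, had levels of 5.64 and 5.72 in HEMI and of 7.12 and 7.09 in WT. It fell by 1.43 ± 0.13 (SE), or 2.69-fold (adjusted p = 0.0439), and its other probes gave -1.49 and -1.68. Pgk1, phosphoglycerate kinase, had levels of 4.09 and 4.02 in HEMI and of 5.21 and 5.26 in WT. It fell by 1.18 ± 0.12, or 2.26-fold (adjusted p = 0.0483). For both genes the animals of a genotype lay close together, and HEMI lay lower without overlap, as in 28.6% of all genes.

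Of the 23 glycolysis and lactate genes, all 23 tested, 2 fell, where 0.208% of all genes did, 0 rose, and 22 had a difference below 0. At an unadjusted p under 0.05, 18 of 23 were lower, where 7.92% of all genes were, and in 20 of 23 both HEMI arrays lay below both WT arrays, where 28.6% of all genes did. The median difference was -0.67 (range -1.43 to 0.01), against -0.02 over all genes. It was -0.60 without WT replicate 2 and -0.75 without WT replicate 1. The calls of Ldha and Pgk1 were lost in each fit that left out an array and with the filter on any group.

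The list spans glucose uptake, the chain of enzymes and lactate export. The glucose transporter Slc2a1 had levels of 1.73 and 2.00 in HEMI and of 3.07 and 2.88 in WT (difference -1.11, adjusted p = 0.0837). Phosphofructokinase Pfkl stood at -1.0, aldolase Aldoa at -0.74, triosephosphate isomerase Tpi1 at -1.05, enolase Eno1 at -1.02 and pyruvate kinase Pkm at -1.03 (adjusted p = 0.0617 to 0.149). The lactate exporter Slc16a3 had levels of 2.71 and 2.90 in HEMI and of 4.0 and 4.12 in WT (difference -1.25, adjusted p = 0.147). Gapdh, often used as a reference gene, stood at -0.47 (adjusted p = 0.200). The members near 0 were Ldhb, the other lactate dehydrogenase subunit, at -0.02, Pfkfb4 at 0.01, and Hk1 and the neuronal enolase Eno2 both at -0.16. Hk2, the inducible hexokinase, stood at -0.33 (adjusted p = 0.515).

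**Figure D3:**
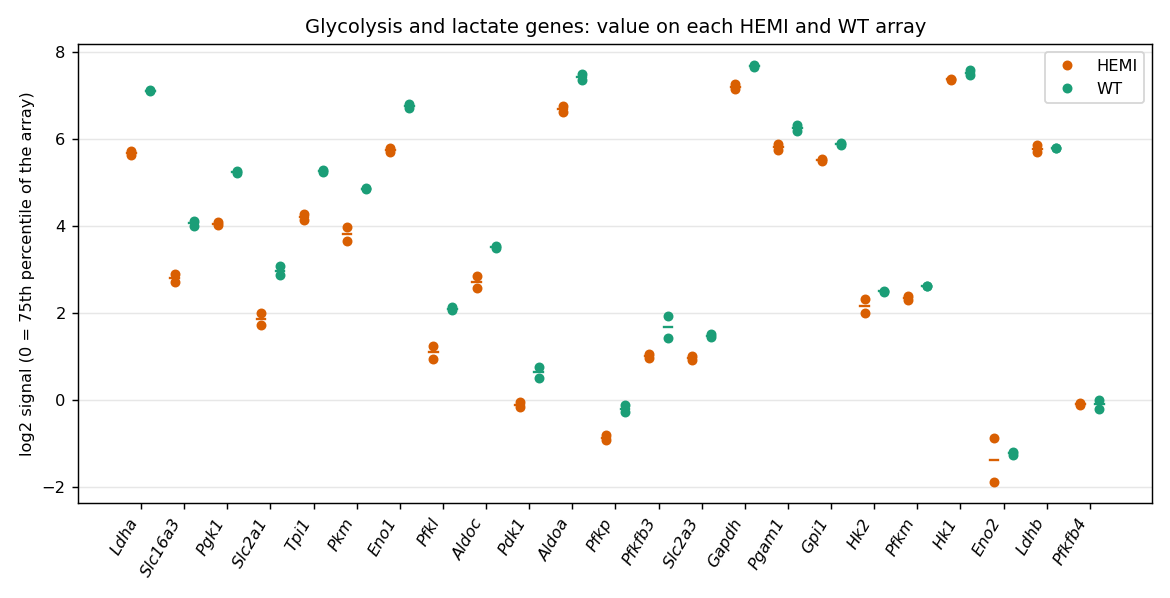
Level (log2, 0 is the 75th percentile of the array) of the 23 glycolysis and lactate genes on each HEMI and WT array, ordered by the difference, with group means as short lines. In 20 of the 23 both HEMI points lie below both WT points, from Ldha at -1.43 to small gaps, and Ldhb and Pfkfb4 lie at -0.02 and 0.01.

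The VSKO arrays lay close to HEMI in the called genes, with Ldha at 5.69 and 5.90 and Pgk1 at 4.29 and 4.15. The VSKO minus HEMI differences of Ldha and Pgk1 were 0.11 and 0.17 (adjusted p = 0.999 and 0.987). Over the 23 glycolysis and lactate genes the median difference from WT was -0.40 in VSKO and -0.67 in HEMI. VSKO and HEMI are each set against the same 2 WT arrays, so their values against WT are not independent.

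Many glycolytic genes are known targets of the hypoxia-inducible factors, which bind the core letters ACGTG or GCGTG. The promoters of both called genes are printed to show how these letters lie in them. The windows come from RefSeq on build GRCm38.p6, span 300 bases around the start site, most of them before it, and are read 5′ to 3′ on the gene's strand. Capitals mark ACGTG, as well as GCGTG, on either strand, so that a match on the other strand shows as its reverse complement. ACGTG also lies inside CACGTG, the E-box letters, which counts once on each strand. The Ldha window is chr7:46845554-46845853 on the plus strand, with 5 ACGTG and 2 GCGTG counted over both strands and 2 CACGTG, and it is the first of 2 start sites in the table. The Pgk1 window is chrX:106186850-106187149 on the plus strand, with 2 ACGTG.
Ldha: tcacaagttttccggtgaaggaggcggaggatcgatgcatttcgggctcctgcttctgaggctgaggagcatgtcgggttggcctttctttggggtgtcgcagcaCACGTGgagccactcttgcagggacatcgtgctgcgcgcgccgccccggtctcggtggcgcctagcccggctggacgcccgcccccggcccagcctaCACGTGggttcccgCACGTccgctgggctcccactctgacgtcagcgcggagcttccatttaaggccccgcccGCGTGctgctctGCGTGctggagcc
Pgk1: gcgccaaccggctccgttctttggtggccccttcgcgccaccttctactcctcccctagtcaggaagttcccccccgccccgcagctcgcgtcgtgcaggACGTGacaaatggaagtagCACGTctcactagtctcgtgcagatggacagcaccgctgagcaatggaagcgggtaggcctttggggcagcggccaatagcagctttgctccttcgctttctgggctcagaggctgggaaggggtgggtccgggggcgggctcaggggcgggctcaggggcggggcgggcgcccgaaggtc
Of 35 start sites found for glycolysis and lactate genes, 27 (77.1%) hold either word. Of all 32851 promoters of this length 43.8% hold one (ACGTG 19.6%, GCGTG 32.4%). Some of the 35 windows overlap, as in Aldoa and Eno1, and the promoters were not matched for base composition. By gene, 19 of 22 hold either word in at least 1 start site, a count that cannot be set against the share by promoter. A match of these letters is a description of the window and shows no binding.

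Of 21 tested HIF factors and other hypoxia targets none passed, and the median was -0.28. At an unadjusted p under 0.05, 6 were lower and none higher, where 7.92% and 4.92% of all genes were. P4ha1, a collagen prolyl hydroxylase subunit, had levels of -1.37 and -1.39 in HEMI and of 0.00 and 0.23 in WT (difference -1.5, adjusted p = 0.0602), with its other probe at -1.44. Bnip3, a mitophagy receptor, had levels of 3.34 and 3.37 in HEMI and of 4.29 and 4.34 in WT (difference -0.96, adjusted p = 0.0829). Vegfa, the vascular growth factor, stood at -0.88 (adjusted p = 0.257). The 27 tested oxidative phosphorylation genes had a median of -0.08, and 0 of them passed or reached an unadjusted p under 0.05 in either direction.

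Some of the called probes without a gene symbol resemble each other in sequence, and they were chosen for naming after their values were seen. A set of 4 called probes has nearly the same 60 bases at different places of build mm9. They are printed because a signal shared by near-identical sequences cannot be given to 1 locus. They are the predicted gene Gm13315 (chr2:14643230-14643289), A_55_P2118810 (chr5:106645294-106645353), NAP096516-001 (chr4:10366413-10366472) and A_55_P2037689 (chr2:59237496-59237555). Each sequence is written 5′ to 3′ as on the array, and capitals mark mismatches with the Gm13315 probe once the pair is aligned, with 2 of the 4 shifted by 1 base.
Gm13315: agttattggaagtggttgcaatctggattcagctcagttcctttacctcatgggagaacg
A_55_P2118810: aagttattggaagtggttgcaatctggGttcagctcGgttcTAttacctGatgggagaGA
NAP096516-001: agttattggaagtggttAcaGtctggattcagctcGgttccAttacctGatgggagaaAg
A_55_P2037689: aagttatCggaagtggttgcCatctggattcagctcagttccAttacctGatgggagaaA
They differ from Gm13315 by 7, 6 and 5 mismatches in that order. Their differences were -1.45, -1.63, -1.68 and -1.75, next to -1.43 for Ldha, so these 4 calls may stand for fewer transcripts. Whether these 4 sequences are copies of part of Ldha was not tested. NAP096516-001 lies 871 bases from a further called probe, A_55_P2063471, which shares a run of 33 bases with the Ldha probe. That probe had levels of 5.53 and 5.57 in HEMI and of 7.01 and 6.92 in WT (difference -1.41, adjusted p = 0.0439), next to the Ldha value of -1.43. Likewise the Pgk1 probe is placed by the array design on chromosome 3 and not at the gene, and 53 of its bases are shared with a probe for the predicted gene Gm5537. The Eno1 probe is placed on chromosome 2. Whether copies of Ldha, Pgk1 and Eno1 elsewhere in the genome add to these signals was not tested.

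Fetal Leydig cell and steroid genes stood lower in HEMI without passing. Steroid synthesis begins when the StAR protein, from Star, carries cholesterol into mitochondria, where the enzyme from Cyp11a1 cuts its side chain. Star had levels of 0.96 and 1.65 in HEMI and of 2.70 and 3.79 in WT, and its other probe gave -1.84. HEMI lay lower without overlap, as in 28.6% of all genes, but both groups spread widely. The difference of -1.94 ± 0.41 (SE) did not pass (adjusted p = 0.161). Cyp11a1 had levels of 3.49 and 3.65 in HEMI and of 4.54 and 4.59 in WT (difference -1.0, adjusted p = 0.0921). Cyp17a1, which makes androgen precursors, had levels of 4.29 and 4.44 in HEMI and of 5.29 and 5.50 in WT (difference -1.03, adjusted p = 0.106).

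Of the 18 steroid hormone synthesis genes 0 passed, 8 were lower and 0 higher at an unadjusted p under 0.05, where 7.92% of all genes were lower, and the median was -0.42. It moved to -0.31 when HEMI replicate 1 was left out and to -0.53 when WT replicate 1 was. Fdx1, the ferredoxin that feeds electrons to the mitochondrial enzymes, stood at -0.87 (adjusted p = 0.151) and the luteinizing hormone receptor gene Lhcgr at -0.72 (adjusted p = 0.343). The adrenal-type enzyme genes Cyp11b1 and Cyp21a1 were lower as well. Cyp11b1 had levels of -5.70 and -3.23 in HEMI, above background on 1 of those arrays, and of -0.36 and 0.89 in WT (difference -4.73, adjusted p = 0.141). Cyp21a1 stood at -1.28 (adjusted p = 0.199). By contrast Hsd3b1, which converts pregnenolone, had a difference of -0.13, and Nr5a1, the nuclear receptor that switches on the pathway, one of -0.11. Of 17 fetal Leydig cell markers 0 passed and the median was -0.32, and it was -0.11 without WT replicate 2. This list shares Star, Cyp11a1, Cyp17a1, Fdx1, Cyp11b1 and other members with the steroid list, so their medians are not independent.

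**Figure D4:**
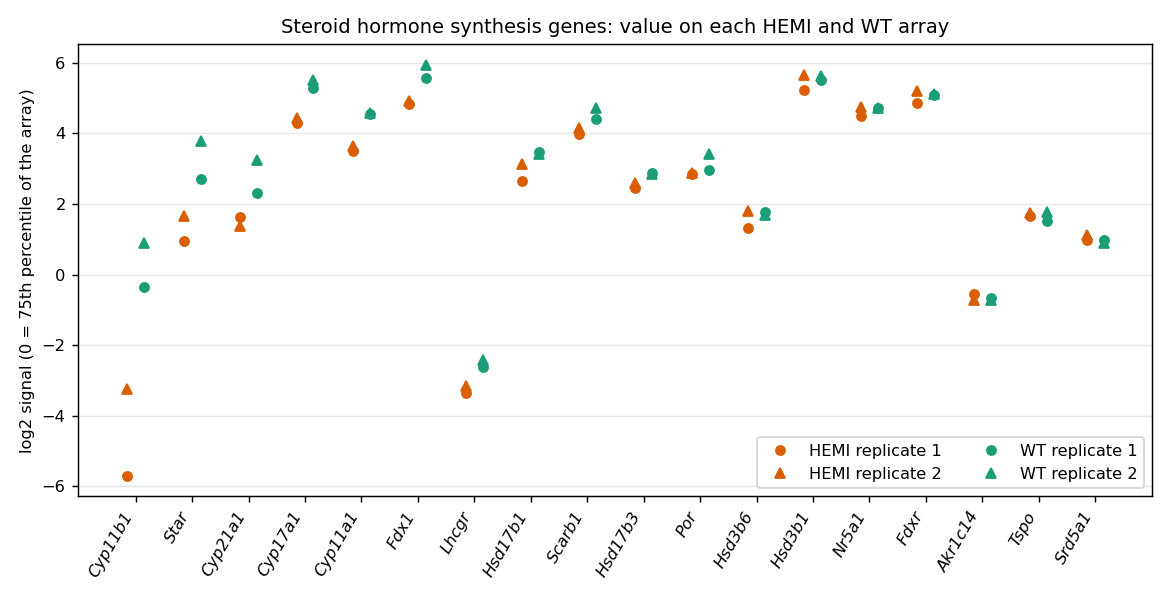
Level (log2, 0 is the 75th percentile of the array) of the 18 steroid hormone synthesis genes on each HEMI and WT array, with a circle for replicate 1 and a triangle for replicate 2. Star, Cyp11b1 and Cyp21a1 are higher in WT replicate 2 than in WT replicate 1, and Hsd3b1 and Nr5a1 lie near the same level in both groups.

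WT replicate 2 was also the higher WT array for Nr4a1 and Junb, immediate early genes that respond quickly to stimuli. Nr4a1, a nuclear receptor induced by luteinizing hormone in Leydig cells, had levels of 3.87 and 3.82 in HEMI and of 4.96 and 6.54 in WT (difference -1.90, adjusted p = 0.225). Junb stood at -4.03 and -4.75 in HEMI and at -3.33 and -1.74 in WT. Of 18 immediate early and heat shock genes 0 passed and the median was -0.30. Their part in the Star and Leydig cell values was not tested.

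Cholesterol is the raw material of steroids, and its synthesis genes were lower too, none passing. Of 24 tested 9 were lower and 0 higher at an unadjusted p under 0.05, where 7.92% of all genes were lower, and 22 stood below 0. The median was -0.39, and it was -0.23 without HEMI replicate 1, the lower of the HEMI arrays in this list, and -0.52 without HEMI replicate 2. Fdps, farnesyl diphosphate synthase, had levels of 4.48 and 4.75 in HEMI and of 5.48 and 5.66 in WT (difference -0.96, adjusted p = 0.103). Dhcr7, a late enzyme of the pathway, stood at -0.77 (adjusted p = 0.244).

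Ctsh, a lysosomal cysteine protease, fell as well, with a probe well above background on all 4 arrays. It had levels of 0.64 and -0.07 in HEMI, of 3.16 and 3.31 in WT and of -0.17 and 0.26 in VSKO. The fall of 2.95 ± 0.28 (SE) was 7.71-fold (adjusted p = 0.0439). Of 14 macrophage markers 0 passed and the median was -0.16. It turned to 0.38 without HEMI replicate 2 and to 0.01 without WT replicate 1, and was -0.65 without HEMI replicate 1 and -0.34 without WT replicate 2. The summed level was 4.51 and 3.57 in HEMI and 4.21 and 3.95 in WT. The lysozyme gene Lyz2 stood at -1.40 (adjusted p = 0.429), and Cx3cr1 and Cd68 at 0.57 and 0.56. Their part in the Ctsh value was not tested.

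Tacr3, the neurokinin B receptor gene, had levels of -2.30 and -2.14 in HEMI and of -0.17 and -0.28 in WT. It fell by 2.00 ± 0.13 (SE), or 3.99-fold (adjusted p = 0.0229). Of 13 tachykinin and neuropeptide receptor genes it was the 1 that passed, where 0.208% of all genes fell. The median of the 13 was -0.42 (-0.63 to -0.29 over 17 alternatives). Crhr1, the receptor for corticotropin-releasing hormone, came next with levels of -0.49 and -0.51 in HEMI and of 0.63 and 0.74 in WT. Its difference of -1.18 ± 0.12 just missed the threshold (adjusted p = 0.0506), and its other probe gave -1.41.

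Trim63, also known as MuRF1, is a ubiquitin ligase of muscle wasting. It had levels of -4.43 and -4.66 in HEMI and of -2.52 and -2.37 in WT, and it fell by 2.10 ± 0.16 (SE), or 4.29-fold (adjusted p = 0.0317). Its other probe lay, in HEMI, under the lowest signal that counted as well above background. Of 16 tested skeletal muscle markers 0 passed, and the animals of each group differed, with summed levels of 4.67 and 6.12 in HEMI and of 6.27 and 3.90 in WT. The fast troponin gene Tnnt3, for example, stood at -0.45 and 1.52 in HEMI and at 1.48 and -2.38 in WT, while Trim63 was nearly the same on both WT arrays. In the list of atrophy and ubiquitin ligase genes Trim63 was the 1 of 9 that passed, where 0.208% of all genes fell. The transcription factor gene Foxo3 stood at -3.06 by its brighter probe and at 0.42 by the other, so its probes disagree.

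H2bc4, a histone H2B gene, had levels of 1.91 and 1.80 in HEMI and of 3.21 and 3.42 in WT, and it fell by 1.46 ± 0.13 (SE, adjusted p = 0.0439). Many histone genes have near-identical copies, and whether this probe separates them was not tested. Colec11, a soluble collectin, fell by 1.35 ± 0.13 (adjusted p = 0.0445), with -1.04 and -1.05 in HEMI and 0.25 and 0.36 in WT. Vill, a villin-like actin-binding gene, fell by 1.48 ± 0.15 (adjusted p = 0.0494). Fam183b, a gene of ciliated cells, fell by 1.54 ± 0.16 (adjusted p = 0.0475). The VSKO arrays were at -0.08 and 0.19 for Fam183b, against -1.06 and -1.23 in HEMI and 0.49 and 0.31 in WT, and the VSKO minus HEMI difference of 1.20 did not pass (adjusted p = 0.112).

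Falls that lie outside the naming rule, named after their values were seen, were those of Vmn2r111, Erich3, Sdf2l1, Ucma, Msc and Syt5, with differences from -1.73 to -1.19, and that of Krt4, which was not above background in HEMI and fell at least 2.41-fold. The 31 called probes without a symbol were 25 that fell and 6 that rose. Some of them do carry a name on the array. An example is the histone gene Hist1h4i, at -1.16 (adjusted p = 0.0439), also named after its values were seen.

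A group of dim falls was near or below background in HEMI. Platr26, a long non-coding RNA, had levels of -5.10 and -4.75 in HEMI and of -0.36 and -0.57 in WT, and it fell by 4.46 ± 0.24 (SE, adjusted p = 0.0119). Its VSKO arrays stood at -4.83 and -5.40. Lrat, the enzyme that stores vitamin A as retinyl esters, had levels of -6.01 and -5.38 in HEMI, above background on 1 of the arrays. Its WT levels were -2.81 and -2.98 (difference -2.80, adjusted p = 0.0409). The probe was kept through WT alone, the group where it is high. On HEMI replicate 1 it lay under the lowest signal that counted as well above background (-5.61), so the size of the fall is uncertain. Lrat was the 1 of 24 genes of retinoic acid supply, breakdown and response that passed, where 0.208% of all genes fell. For probes above background in WT and on no HEMI array a bound is given, from the WT mean over the lowest signal that counted as well above background in HEMI. Such probes were kept through WT alone, the group where they are high. The zinc finger gene Mecom fell at least 6.86-fold, the uridine phosphorylase gene Upp2 at least 6.31-fold, and the odorant receptor genes Olfr535 and Olfr1317 at least 4.04-fold and 3.75-fold. Dimmer probes for Mecom and Upp2, at 0.26 and -0.73, were not above background in either group.

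Rises were fewer and mostly dim. Krtap3-3, a hair keratin-associated gene, had levels of -2.74 and -2.25 in HEMI against -7.53 and -7.45 in WT, where it was not above background, and rose at least 7.10-fold (adjusted p = 0.0119). The ankyrin repeat gene Ankdd1a rose at least 1.39-fold, and Mlph, which links melanosomes to myosin, at least 1.13-fold. Krtap3-3, Ankdd1a and Mlph were above background on no WT array, so they were kept through HEMI alone, the group where they are high. No gene was called without the filter on dim probes.

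Among symbol genes at or above the median level none rose with an adjusted p under 0.05, and the 10 with the smallest p had adjusted p = 0.0829 to 0.134. A bright probe without a symbol did rise, A_55_P1953377 on chromosome 8, named after its values were seen. It had levels of 2.49 and 2.99 in HEMI and of 0.46 and 0.49 in WT (difference 2.27, adjusted p = 0.0439). Daam2, a formin of Wnt signalling, had levels of 2.33 and 2.20 in HEMI and of 1.26 and 1.40 in WT (difference 0.93). Qpct, glutaminyl cyclase, had levels of 2.16 and 2.34 in HEMI and of 0.33 and 0.44 in WT (difference 1.86). Crym, a thyroid hormone-binding protein, stood at 1.54 and Angptl4, an inhibitor of lipoprotein lipase, at 1.28. Hhex, a homeobox gene, stood at 1.09, the myosin-binding gene Mybpc3 at 1.38, the tetraspanin Tspan17 at 0.97 and the primase subunit Prim2 at 0.76.

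The test of HEMI against VSKO called 5 genes (0.0208% of those tested), and 4 of these were also among the 63. In all 4, HEMI was high and both other groups were low, but probes were kept by HEMI or WT, so that a probe above background in VSKO alone could not enter, and 3 of the 4 were kept through HEMI alone. The vomeronasal receptor gene Vmn1r104 had levels of -4.40 and -4.20 in HEMI, of -7.38 and -7.28 in WT and of -7.80 and -7.73 in VSKO, and was above background in HEMI alone. It rose at least 2.03-fold over WT, and its VSKO minus HEMI adjusted p was 0.0157. The odorant receptor gene Olfr965 rose at least 1.22-fold, with a VSKO minus HEMI adjusted p of 0.034. Its other probe, not above background on both arrays of either group, stood at -0.38. The other 2 carry no symbol and are named after their values were seen. LOC100503910, on chromosome 8, had levels of 2.15 and 1.90 in HEMI, of -4.61 and -4.99 in WT and of -4.04 and -3.47 in VSKO, with a difference of 6.82, the largest of the 63. ENSMUST00000103369, on chromosome 6, rose at least 3.39-fold.

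Several lists gave no called gene. The 20 Sertoli cell markers had a median of -0.00, with the transcription factor Sox9 at 0.19 and anti-Müllerian hormone, Amh, at -0.43. Interstitial progenitors and mesenchyme stood at -0.03, endothelium at -0.19, peritubular myoid and smooth muscle at 0.01, erythroid cells at -0.29, adipocytes at 0.17, peripheral glia and neurons at 0.12, and granulosa and ovary pathway at -0.03. Niche ligands and germ cell receptors had a median of 0.01, with Ret, the receptor of the stem cell factor GDNF, at 1.15 and the chemokine receptor Cxcr4 at -1.98 (adjusted p = 0.357 and 0.233). G2 and M phase genes stood at 0.07, DNA replication and S phase at -0.10, Polycomb at 0.05, p53 targets and cell cycle inhibitors at -0.09 with Cdkn1a at 0.40, interferon response at 0.02, imprinted genes at -0.14, and collagens and matrix at -0.06. The 9 tested Hoxb genes had a median of 0.46, which was 0.09 without HEMI replicate 1 and 0.95 without HEMI replicate 2, with Hoxb5 at 1.44 and Hoxb6 at 1.56 (adjusted p = 0.297 and 0.365). All 22 ribosomal protein genes stood below 0, at a median of -0.18, which was -0.01 with quantile normalization. Several of these medians changed sign over the 17 alternatives, such as Sertoli cells (-0.17 to 0.08), adipocytes (-0.18 to 0.3) and imprinted genes (-0.3 to 0.06).

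**Figure D5:**
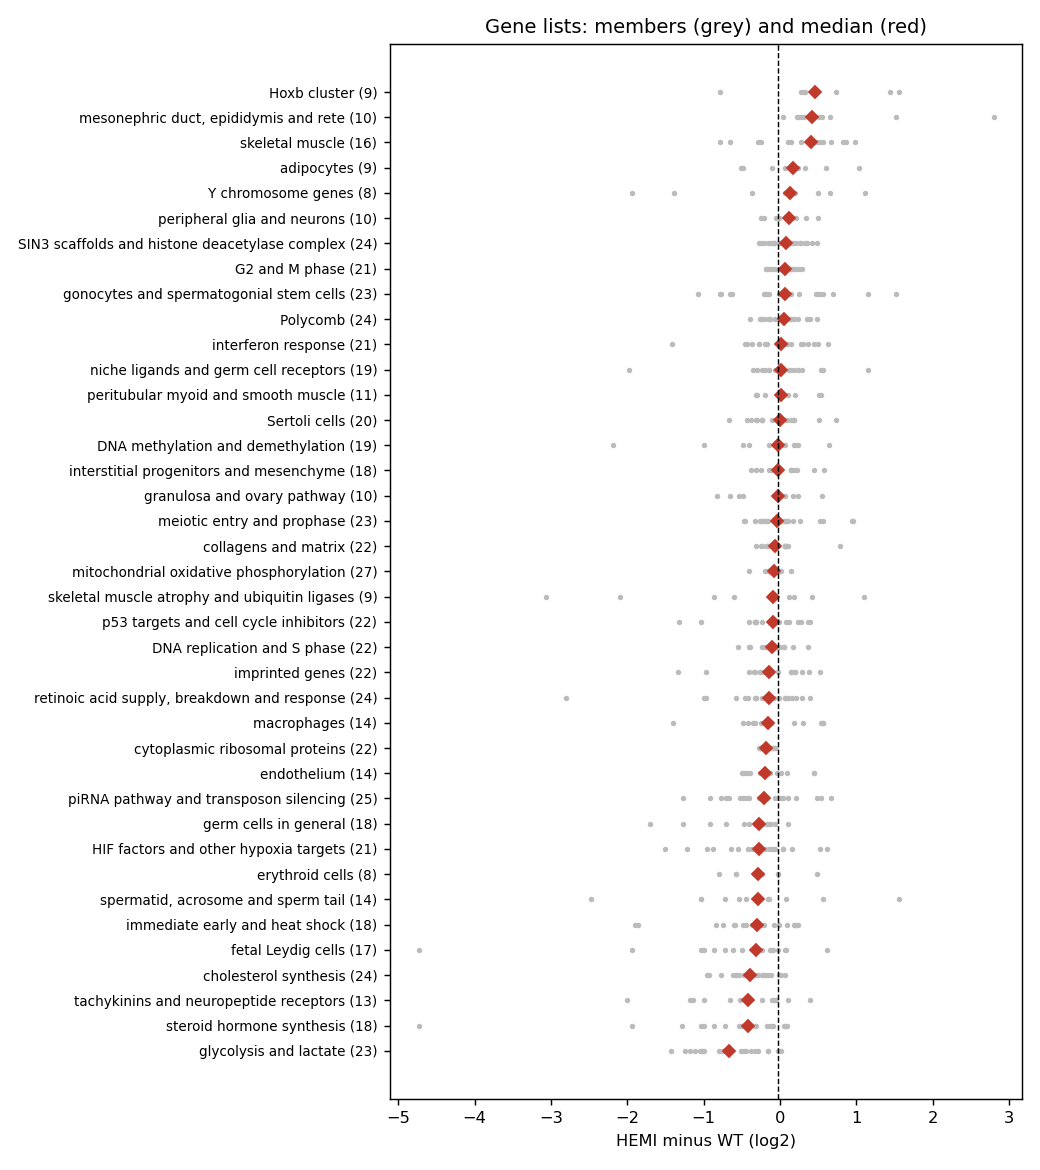
HEMI minus WT difference (log2) of each tested member (grey) and the median (red) of the gene lists and cell type marker lists, with the number of tested members in brackets and the median of all genes, -0.02, as a dashed line. Among the lists drawn, glycolysis and lactate has the lowest median at -0.67, followed by steroid hormone synthesis and the neuropeptide list at -0.42. The Hoxb cluster has the highest at 0.46. A list of Sin3a, Dnmt3l, Spata21 and Star, with a median of -2.06, is not drawn.

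By position, the called genes were spread over the genome. Chromosome 9, which carries Sin3a, held 4 of the called genes among 1207 tested (0.331%, against 0.263% over all): Ctsh, Vill, Ankdd1a and Olfr965. Chromosome 3 held 8 of 1171 (0.683%) and chromosome 2 held 8 of 1769 (0.452%). The Y chromosome held 1 of 15 (6.67%), Rbmy, and its unplaced sequence 1 of 27 (3.7%), while chromosome 18 held 0 of 621. The positions are those of the array design and include probes of multicopy sequence.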

How the data were processed

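RNA of 6 testis samples was hybridised to 1-colour (Cy3) Agilent arrays on 1 slide. Per the file headers the deposited processed signal is a linear intensity from which Feature Extraction had removed background and spatial trend (modules 10.7.3.1, or 8.5.1.1 per the submitters' processing notes). The mean spot and local background intensities were used for 1 alternative. Outlier and well-above-background flags are other, 0 or 1 quality calls, per the file headers. The authors' series table gives the same intensity divided by each array's median, within 0.00105%.

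The log2 processed signal of non-control spots, without outliers, was shifted by each array's 75th percentile and averaged by probe. Probes well above background on both arrays of HEMI or WT were kept (33425), with the probe of highest mean per gene, which left 23993 genes. Names came from RefSeq accessions (26756 of 55681 probes), other accessions (102) or symbols (3756), and 25067 kept the file's name. Positions are on mm9. The 6 arrays were fitted with limma 3.58.1 in R 4.3.3 (2.37 prior and 3 residual degrees of freedom, Benjamini-Hochberg adjustment, threshold 0.05), checked on simulated data. The number of arrays limits precision. Named genes are the 7 rises and the 10 largest falls with a symbol, fixed genes, up to 4 members with the smallest p of each list, and the 10 with the smallest p per direction at or above the median level. Some of these genes are not reported here. The members, lists and rules were chosen with earlier results of these data known. Same-numbered animals did not deviate together (correlations -0.04 to -0.02), so numbers do not pair samples. Alternatives changed the fit, scaling, background correction, filter, probe choice or left out an array.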

Additional observations from a re-analysis of the deposited data

How the results depend on the processing

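Against the 63 calls, median scaling gave 101 (30 higher, 71 lower, 59 of them among the 63). The series table values gave the same 101, as they are scaled by the median too and are no separate check. Normexp background gave 137 (51 shared) and an intensity trend 149 (57 shared). Probes kept from any group, chosen after seeing the data, gave 29. A fit of the 4 HEMI and WT arrays alone gave 13. Leaving out either VSKO array is the same fit for HEMI minus WT, since a lone array holds no spread. Both kinds of repeat count among the 17 alternatives. The replicate block gave 10 (9 shared), though the animals' numbers do not pair them. No filter on dim probes gave 0 by limma (5281 genes at an unadjusted p under 0.05), with 35072 genes tested. Quantile normalization gave 44, probes above background on all 4 arrays 54, and the mean over the probes of a gene 71. Leaving out 1 array gave 0 to 13. Without a filter Olfr965, then measured by another probe, stood at -0.38 (adjusted p = 0.871), the 1 reversal among the called named genes. Of 25 called genes named, 23 stayed called with median scaling, 16 with quantile normalization and 4 in the block. The glycolysis and lactate median ran from -0.75 to -0.60 over 17 alternatives. With 2 animals a group, changes under 2.24-fold were not called in the reported fit, while Bnip3, at -0.96, was called with the intensity trend and with normexp background. Signals near background give bounds only.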
